A study of Homo sapiens with 4 samples.

Results

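The core circadian clock was examined in breast cancer cells through 10 genes, namely BHLHE41 and BHLHE40, PER1, PER2 and PER3, CRY1 and CRY2, CLOCK, NR1D1 and DBP. These genes were chosen by their names together with their known expected counts and TPM in HER2 L755S against HER2 WT cells, so their values in that contrast are given as a description without a p-value. All 10 were found by symbol among the 60675 genes of the deposited tables. The cells were MM134, an estrogen receptor positive line from an invasive lobular breast carcinoma. In the first line HER2, a receptor tyrosine kinase whose gene is ERBB2, bore the kinase domain substitution L755S (HER2 L755S), and in the second it was wild type (HER2 WT). Both had spent 7 days without estrogen, in phenol red free medium with 5% charcoal-stripped serum. Each line gave 2 libraries, numbered 1 and 2 in the labels. How each HER2 form came into the cells, whether a line is a single clone and at what hour RNA was taken are not stated in the labels.

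In the clock, CLOCK and its partner ARNTL bind E-box sequences and switch on PER and CRY genes, whose proteins return to inhibit the pair. BHLHE40 and BHLHE41, also known as DEC1 and DEC2, are basic helix-loop-helix repressors that bind E-boxes as well and dampen the same activation. NR1D1, or REV-ERB alpha, is a nuclear receptor that represses ARNTL, and DBP is an activator that works through D-box elements and is itself a classical E-box target.

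BHLHE41, BHLHE40 and PER1 held the E-box CACGTG in the 250 bases before their RefSeq start, and these windows are shown because both clock activators and BHLHE repressors are known to bind that element. The sequences are from RefSeq (GRCh38.p14), run 5′ to 3′ along the gene's strand, with the E-box in capitals. The BHLHE41 window is chr12:26125038-26125287 on the minus strand, the BHLHE40 window is chr3:4979187-4979436 on the plus strand, and the PER1 window is chr17:8152405-8152654 on the minus strand. The RefSeq starts differ from the ends of the GENCODE 29 gene spans given below, so that the BHLHE40 and PER1 windows lie inside those spans and the BHLHE41 window lies partly inside.
BHLHE41: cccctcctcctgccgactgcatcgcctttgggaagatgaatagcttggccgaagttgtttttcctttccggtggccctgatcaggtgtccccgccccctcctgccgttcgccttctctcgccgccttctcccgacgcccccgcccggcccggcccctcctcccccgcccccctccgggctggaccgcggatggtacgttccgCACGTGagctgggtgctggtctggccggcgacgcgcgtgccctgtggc
BHLHE40: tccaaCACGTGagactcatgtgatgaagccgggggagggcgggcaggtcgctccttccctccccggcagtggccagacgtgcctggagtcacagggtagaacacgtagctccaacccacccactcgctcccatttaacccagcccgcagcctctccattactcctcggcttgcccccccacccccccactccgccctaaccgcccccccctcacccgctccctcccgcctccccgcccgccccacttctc
PER1: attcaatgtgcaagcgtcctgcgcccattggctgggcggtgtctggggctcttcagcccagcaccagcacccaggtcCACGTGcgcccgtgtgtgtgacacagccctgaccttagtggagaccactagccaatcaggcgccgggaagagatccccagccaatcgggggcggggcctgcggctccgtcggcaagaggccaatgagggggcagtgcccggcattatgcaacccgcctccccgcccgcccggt
The E-box began 48 bases before the RefSeq start in BHLHE41, 245 bases before it in BHLHE40 and 173 bases before it in PER1. All 10 genes matched RefSeq promoter entries, with 13 windows between them. CACGTG, searched on both strands, was present in 6.34% of 35116 windows of the same length. The related hexamer CACGTT was found before PER2, CRY1, CRY2, CLOCK and NR1D1 and in 4.55% of all windows. The D-box letters TTANGTAA occurred before PER3 and in 1.98% of windows, and the ROR element, which NR1D1 also binds, occurred before CLOCK and in 0.47%. These matches describe letters in the windows, not bound sites.

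Sequencing depth was 28836412 and 27423247 expected counts in HER2 L755S 1 and 2, against 31088422 and 28804772 in HER2 WT 1 and 2. ERBB2 stood at 2443 and 1203 CPM (the CPM scale sets counts against the scaled library size) in HER2 L755S 1 and 2, against 1934 and 1936 CPM in the HER2 WT libraries, so the lines overlapped. All 9 luminal markers passed the filter on low counts, and their summed level was 7165 and 7828 CPM in HER2 L755S against 8451 and 7928 CPM in HER2 WT libraries. KRT19 was the largest part of that sum, which says little of the lower markers. ESR1 had 64.7 and 122 CPM in HER2 L755S 1 and 2, against 176 and 282 CPM in HER2 WT 1 and 2. Its log2 fold change was -1.29 (edgeR adjusted p = 0.15), and none of the 9 markers passed between the lines, where 1.69% of all tested genes passed. Without the filter, and with the replicate number as a block, 1 of the 9 was called lower. Among all tested genes 431 and 1018 were called lower in these settings. All 5 basal and all 8 leukocyte markers were under 1 CPM in every library, and AIF1 and CD3E were at 0. Of 8 fibroblast and endothelial markers CDH5 and PECAM1 were at 0, and 3 passed the filter. Mitochondrial transcripts took 4.03% and 13.5% of counts in HER2 L755S 1 and 2, and 4.4% and 8.83% in HER2 WT 1 and 2, so both libraries of number 2 had the higher share. Nothing in the labels says that libraries of a line stem from separate cultures. All p-values therefore refer to the spread among these 4 libraries, part or all of which may be technical.

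BHLHE41 was far higher in HER2 L755S cells than in their wild-type counterparts, its closest relative BHLHE40 was lower, and NR1D1 was higher. These were the 3 members whose libraries did not overlap between the lines, while 36.2% of 16538 tested genes had no such overlap. Nothing is read from that count of 3. The other 7 members overlapped, and in 5 of them the difference between the lines took opposite signs in the 2 replicate numbers. How many of all tested genes had opposite signs was not computed, so nothing is read from that count. The median log2 fold change was 0.19 over the 10 members and 0.00 over all tested genes. In edgeR's quasi-likelihood test over all genes, 1 member, BHLHE41, was called at a Benjamini-Hochberg adjusted p under 0.05, and 1.69% of tested genes were called. Since this contrast was used to choose the genes, nothing is read from that count.

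**Figure D1:**
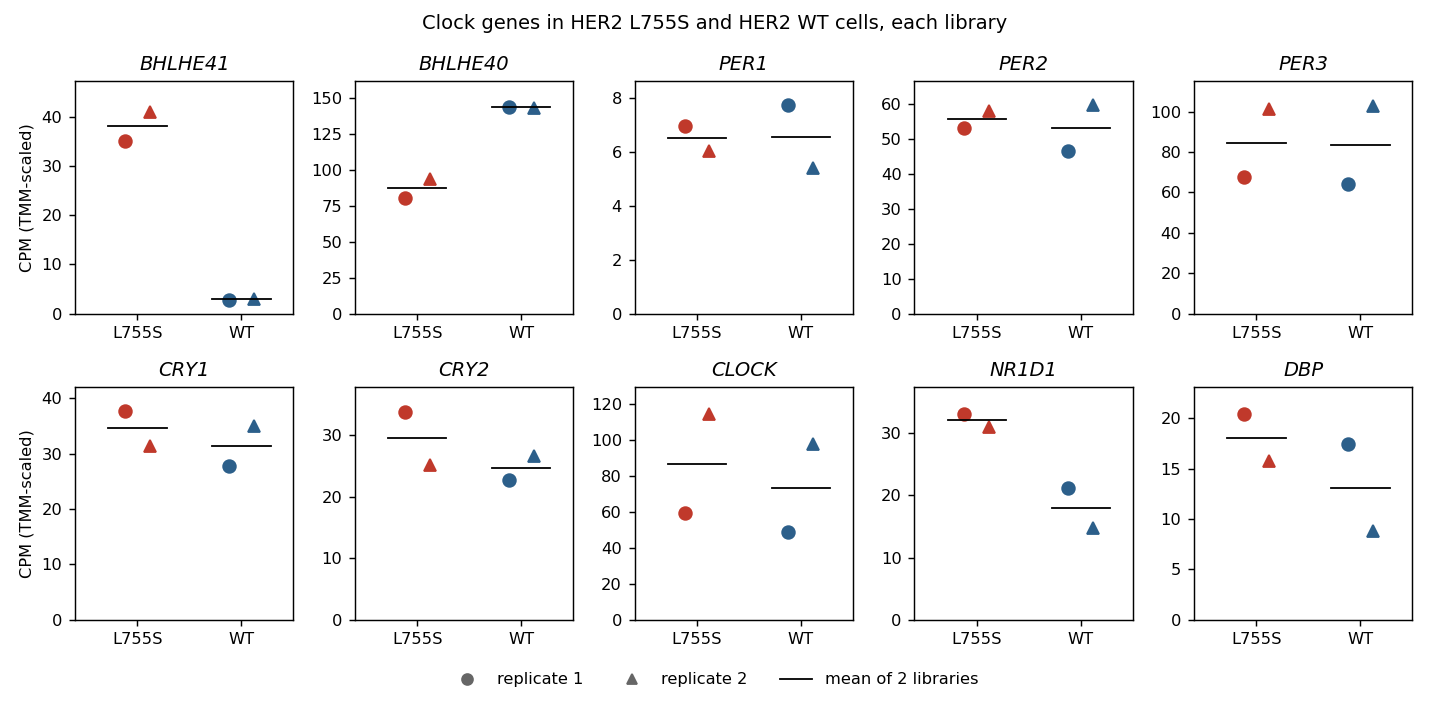
Level of each clock gene in CPM (linear axes starting at 0) in HER2 L755S and HER2 WT libraries, with circles for replicate 1, triangles for replicate 2 and a line at the mean of 2 libraries. BHLHE41 stood at 35.1 and 41.1 CPM in HER2 L755S against 2.78 and 3.06 CPM in HER2 WT libraries. CLOCK, PER1, PER2, PER3 and DBP separate by symbol, not by colour.

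In these 4 libraries the values of BHLHE41 and BHLHE40 differed between the lines in opposite directions, and only BHLHE41 was called. BHLHE41 (ENSG00000123095, GRCh38 chromosome 12, 26120026 to 26125127, minus strand) had 35.1 and 41.1 CPM in HER2 L755S 1 and 2, against 2.78 and 3.06 CPM in HER2 WT 1 and 2. Both HER2 L755S libraries were thus high and both HER2 WT libraries low, with a wide gap between them. In bulk RNA, a change in the number of expressing cells and a change in RNA per cell cannot be told apart. BHLHE41 averaged 38.1 ± 4.18 CPM across HER2 L755S libraries and 2.92 ± 0.201 CPM across HER2 WT libraries (SD, n = 2 each). Its log2 fold change was 3.70 (SE 0.37), a 13.02-fold difference. The value was 3.65 for pair 1 (HER2 L755S 1 over HER2 WT 1) and 3.74 for pair 2. BHLHE40 (ENSG00000134107, chromosome 3, 4979116 to 4985323, plus strand) had 80.7 and 93.6 CPM in HER2 L755S 1 and 2, against 144 and 143 CPM in HER2 WT 1 and 2. Both HER2 L755S libraries lay below both HER2 WT libraries. Its log2 fold change of -0.72 (SE 0.30) came from -0.83 for pair 1 and -0.61 for pair 2.

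Per unit of transcript length, BHLHE40 was the most abundant of the 10 genes in all 4 libraries. BHLHE40 had 34.41 and 30.8 TPM in HER2 L755S 1 and 2, and 62.17 and 58.35 TPM in HER2 WT 1 and 2. BHLHE41 had 21.41 and 13.87 TPM in HER2 L755S 1 and 2, and 1.23 and 2.77 TPM in HER2 WT 1 and 2. BHLHE41 therefore ranked 3 of 10 in both HER2 L755S libraries and 10 of 10 in both HER2 WT libraries. The TPM ratio of BHLHE41 to BHLHE40 was 0.622 and 0.450 in HER2 L755S 1 and 2, against 0.0198 and 0.0475 in HER2 WT 1 and 2. BHLHE40 thus stayed above BHLHE41 in every library, by a much smaller margin in HER2 L755S cells. Among the rest of the HER2 L755S order, the TPM ranges of BHLHE41, DBP, CRY1, PER3 and NR1D1 overlapped, so these neighbours in the order did not differ beyond their spread.

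The TPM of BHLHE41 carried an added source of spread. RSEM gave it an abundance-weighted transcript length of 2331 and 3202 bases in HER2 L755S 1 and 2, and of 3202 and 1622 bases in HER2 WT 1 and 2. The annotation holds transcripts of 3837, 438 and 350 bases for this gene. With nearly equal expected counts of 90 and 89, the HER2 WT libraries had TPM of 1.23 and 2.77, so their TPM differed where their counts did not. On the TPM scale, log2(TPM + 0.1), the difference between the lines was 3.15. PER1 showed the same dependence, with lengths of 1886 and 2158 bases in HER2 L755S 1 and 2, against 3492 and 2648 bases in HER2 WT 1 and 2. NR1D1 has a single annotated transcript of 2772 bases and no such variation.

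**Figure D2:**
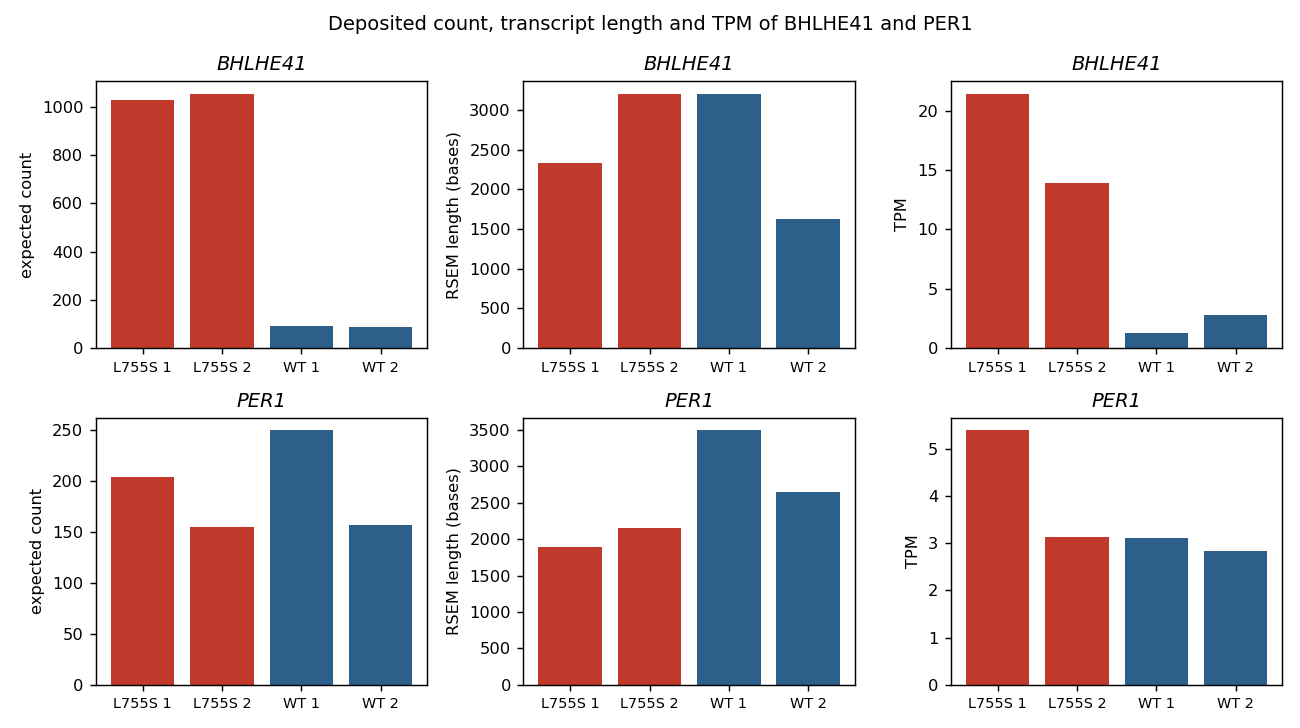
Deposited expected count, RSEM transcript length in bases and TPM of BHLHE41 (top) and PER1 (bottom), a bar for each library, red for HER2 L755S and blue for HER2 WT, all axes starting at 0. In HER2 WT cells BHLHE41 had counts of 90 and 89 but lengths of 3202 and 1622 bases.

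The difference in BHLHE41 was shared by close neighbours. These neighbours were looked at after the values were seen. SSPN, which encodes the dystrophin-complex protein sarcospan, starts 3.14 kb from the BHLHE41 start on the opposite strand and shares 162 exon bases with it, 4.1% of the exon bases of BHLHE41. SSPN had 7.73 and 7.71 CPM in HER2 L755S 1 and 2, against 0.711 and 0.999 CPM in HER2 WT 1 and 2 (log2 fold change 3.17, SE 0.46, edgeR adjusted p = 0.0067). The antisense transcript RP11-283G6.3 had 1.23 and 1.01 CPM in HER2 L755S 1 and 2, and 0.154 and 0.103 CPM in HER2 WT 1 and 2 (log2 fold change 3.07, edgeR adjusted p = 0.059), which did not pass the threshold. All 3 genes were higher in each HER2 L755S library than in each HER2 WT library. In HER2 L755S 1 the expected counts of BHLHE41 and SSPN were fractional, at 1027.89 and 226.11, and summed to a whole number within 0.02. BHLHE41 had whole counts in the other 3 libraries, and SSPN was fractional in HER2 WT 1, at 23.28. What share of reads each gene may owe to the other strand was not tested.

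Within 1.5 Mb of BHLHE41, 18 other genes were tested, of which 2 passed the threshold, both higher in HER2 L755S, and 16 did not. Of all tested genes 1.69% passed. The median log2 fold change of the 18 was 0.24, beside 0.00 for all tested genes. Of the 18, 13 were above 0, a share that was not computed for all tested genes. The window was centred on a gene chosen with this contrast known, so nothing is read from these counts. The second called gene was ARNTL2, which encodes a relative of ARNTL able to pair with CLOCK and starts 1208 kb from BHLHE41. It had 30 and 37 counts in HER2 L755S 1 and 2, against 0 and 1 in HER2 WT 1 and 2. The ratio of summed counts, scaled to library totals, was 74.92, with an exact 95% interval for counting error alone of 12.99 to 3003. The edgeR log2 fold change was 5.90 (adjusted p = 0.014). With 0 and 1 counts in HER2 WT, ARNTL2 passed the filter on low counts only through HER2 L755S. It could thus hardly have been called in the other direction, and no support is drawn from its call. At about 1 CPM in HER2 L755S cells it was a low transcript.

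**Figure D3:**
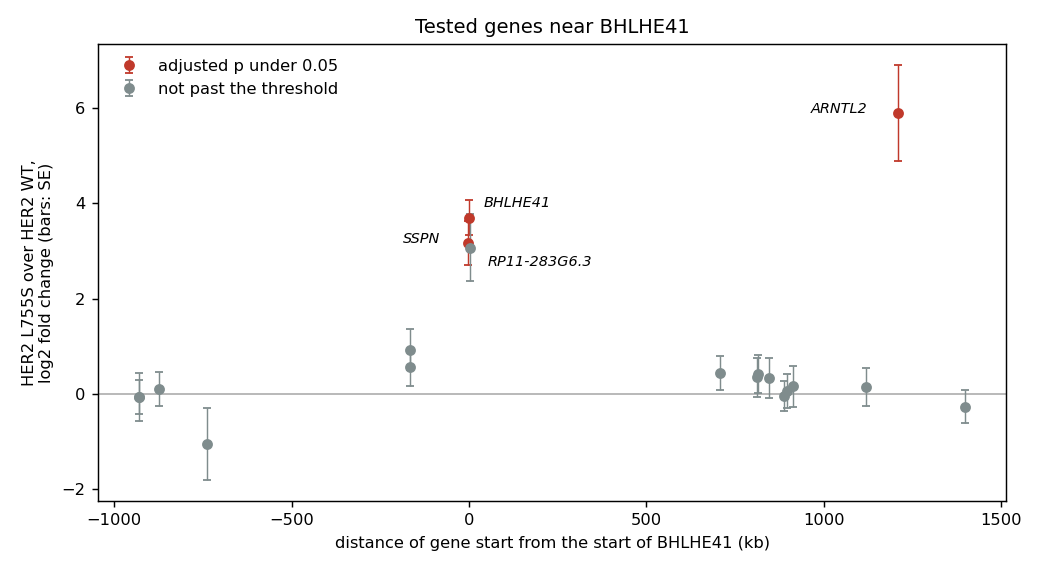
Log2 fold change of HER2 L755S over HER2 WT with its SE (vertical axis) for BHLHE41 and the 18 other tested genes within 1.5 Mb, by the distance of their starts in kb (horizontal axis); red marks an adjusted p under 0.05. BHLHE41, SSPN and RP11-283G6.3 sit together near 0 kb above 3, most others lie near 0, and the height of ARNTL2 rests on 0 and 1 counts in HER2 WT libraries.

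The activator CLOCK did not separate the lines. CLOCK (ENSG00000134852, chromosome 4, 55427903 to 55547138, minus strand) had 59.4 and 114 CPM in HER2 L755S 1 and 2, against 48.9 and 97.3 CPM in HER2 WT 1 and 2. The lines overlapped, and within each line the library of number 2 was the higher. Between the lines the log2 fold change of 0.25 (SE 0.42) came from 0.28 for pair 1 and 0.23 for pair 2. Its partner ARNTL, named here for that role, had 43.3 and 26.95 CPM in HER2 L755S 1 and 2, against 46.4 and 47.0 CPM in HER2 WT 1 and 2 (log2 fold change -0.41, edgeR adjusted p = 0.89).

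The PER genes, the negative arm of the loop, had nearly equal means in the lines. PER1 (ENSG00000179094, chromosome 17, 8140472 to 8156506, minus strand), a rapidly inducible member, had 6.97 and 6.04 CPM in HER2 L755S 1 and 2, and 7.72 and 5.41 CPM in HER2 WT 1 and 2. PER2 (ENSG00000132326, chromosome 2, 238244038 to 238290102, minus strand) had 53.2 and 58.2 CPM in HER2 L755S 1 and 2, and 46.5 and 59.9 CPM in HER2 WT 1 and 2. PER3 (ENSG00000049246, chromosome 1, 7784320 to 7845177, plus strand) had 67.5 and 101 CPM in HER2 L755S 1 and 2, and 64.3 and 103 CPM in HER2 WT 1 and 2. All 3 overlapped between the lines. Their log2 fold changes were -0.01 (SE 0.39) for PER1, 0.07 (SE 0.32) for PER2 and 0.01 (SE 0.36) for PER3, and each changed sign between the pairs. PER3 shares 868 exon bases with UTS2 on the other strand, which had at most 2.26 counts in a library. PER1 rested on few reads, 204 and 155 counts in HER2 L755S 1 and 2 and 250 and 157 counts in HER2 WT 1 and 2.

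The CRY genes, whose proteins bind CLOCK and ARNTL and block them, also overlapped. CRY1 (ENSG00000008405, chromosome 12, 106991364 to 107093829, minus strand) had 37.7 and 31.4 CPM in HER2 L755S 1 and 2, and 27.9 and 35.0 CPM in HER2 WT 1 and 2. CRY2 (ENSG00000121671, chromosome 11, 45847118 to 45883248, plus strand) had 33.8 and 25.2 CPM in HER2 L755S 1 and 2, and 22.6 and 26.6 CPM in HER2 WT 1 and 2. In pair 1 both were higher in HER2 L755S, by 0.44 for CRY1 and 0.58 for CRY2 on the log2 scale, and in pair 2 both differences were below 0, at -0.16 and -0.08. Over all libraries the log2 fold change was 0.14 (SE 0.33) for CRY1 and 0.26 (SE 0.34) for CRY2. CRY1 exceeded CRY2 per unit of length in every library, with TPM ratios of 1.596 and 1.921 in HER2 L755S 1 and 2, and of 1.701 and 1.683 in HER2 WT 1 and 2.

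NR1D1 (ENSG00000126368, chromosome 17, 40092787 to 40100725, minus strand) was the second member that was higher in HER2 L755S cells without overlap. It had 33.09 and 31.04 CPM in HER2 L755S 1 and 2, against 21.1 and 14.7 CPM in HER2 WT 1 and 2. NR1D1 averaged 32.07 ± 1.451 CPM across HER2 L755S libraries and 17.9 ± 4.52 CPM across HER2 WT libraries (SD, n = 2 each). Its log2 fold change of 0.84 (SE 0.34) came from 0.65 for pair 1 and 1.07 for pair 2. NR1D1 shares 263 exon bases, 9.49% of its own, with THRA, the thyroid hormone receptor alpha gene on the other strand. NR1D1 and THRA had fractional counts whose sums were whole in all 4 libraries, which is how RSEM leaves reads that it has divided between a pair of genes. THRA had 88.7 and 60.1 CPM in HER2 L755S 1 and 2, and 99.8 and 98.2 CPM in HER2 WT 1 and 2 (log2 fold change -0.41, edgeR adjusted p = 0.87). The sum of both genes was 3561 and 2340 counts in HER2 L755S 1 and 2, and 3913 and 3279 counts in HER2 WT 1 and 2. The sums overlapped between the lines, and what another division of the shared reads would give was not tested.

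DBP (ENSG00000105516, chromosome 19, 48630030 to 48637438, minus strand) had 20.4 and 15.8 CPM in HER2 L755S 1 and 2, and 17.5 and 8.78 CPM in HER2 WT 1 and 2. The lines overlapped, although both pairs were above 0, at 0.23 in pair 1 and 0.84 in pair 2. The log2 fold change was 0.46 (SE 0.40), and it was 0.06 without HER2 WT 2 and 1.04 without HER2 WT 1. DBP shares 661 exon bases, 10.1% of its own, with SPHK2 on the other strand, and their counts summed to whole numbers in 3 of 4 libraries.

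**Figure D4:**
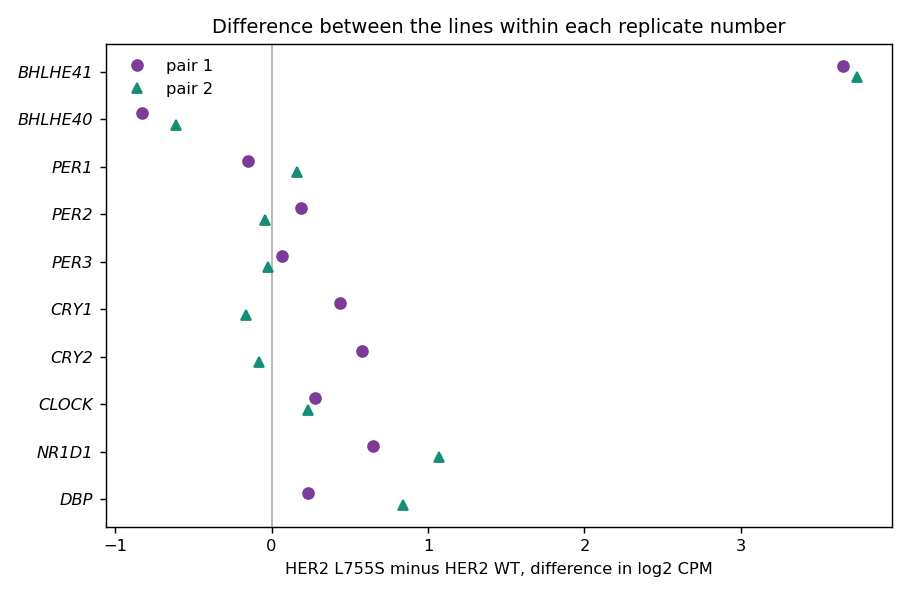
Difference in log2 CPM between HER2 L755S and HER2 WT within replicate number 1 (circles) and 2 (triangles), a row for each clock gene. BHLHE41 lies at 3.65 and 3.74, BHLHE40 is below 0 in both pairs, and PER1, PER2, PER3, CRY1 and CRY2 fall on both sides of 0.

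The libraries were also compared by replicate number. This contrast, number 2 over number 1 with the line as a term, was not used to choose the genes, and the labels do not say what the number stands for. CLOCK and PER3 were higher in number 2 libraries, DBP was lower, and the other 7 members did not pass the threshold. That is 3 of 10 members, where 18.2% of all tested genes passed in edgeR's quasi-likelihood test with Benjamini-Hochberg adjustment. The median log2 fold change was 0.07 over the members and -0.03 over all tested genes.

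CLOCK had 114 and 97.3 CPM in the number 2 libraries of HER2 L755S and HER2 WT, against 59.4 and 48.9 CPM in their number 1 libraries. Its log2 fold change was 0.97 (SE 0.18, edgeR adjusted p = 0.0039), a 1.96-fold increase, with 0.94 within HER2 L755S and 0.99 within HER2 WT. PER3 had 101 and 103 CPM in the number 2 libraries of HER2 L755S and HER2 WT, against 67.5 and 64.3 CPM in their number 1 libraries. In both genes each number 2 library was above each number 1 library. That also held for PER2, while PER1 and DBP separated the other way. How many of all tested genes separate by number was not computed. PER3 rose by 0.63 on the log2 scale (SE 0.18, edgeR adjusted p = 0.027), with 0.58 within HER2 L755S and 0.68 within HER2 WT. DBP had 15.8 and 8.78 CPM in the number 2 libraries of HER2 L755S and HER2 WT, against 20.4 and 17.5 CPM in their number 1 libraries. DBP fell by 0.68 on the log2 scale (SE 0.22, edgeR adjusted p = 0.046), with -0.37 within HER2 L755S and -0.99 within HER2 WT. Its overlapping partner SPHK2 differed the same way (log2 fold change -0.97, edgeR adjusted p = 0.0052).

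BHLHE41, the member with the widest gap between the lines, had a log2 fold change of 0.19 (SE 0.21, edgeR adjusted p = 0.57) between the numbers, and BHLHE40 had 0.10 (SE 0.19, adjusted p = 0.74). PER1, PER2 and NR1D1 were at -0.36, 0.25 and -0.30 (edgeR adjusted p = 0.39, 0.38 and 0.31), CRY1 and CRY2 at 0.03 and -0.10 (adjusted p = 0.93 and 0.79). CRY1 and CRY2 differed in direction between the lines, with number 2 minus number 1 at -0.26 and -0.43 in HER2 L755S and at 0.33 and 0.23 in HER2 WT, a difference that was not tested. The fit has 1 residual degree of freedom per gene. PER3 did not pass without the filter on low counts (adjusted p = 0.061), DBP passed neither there nor in DESeq2 (0.092 and 0.11), and without the line term none of the 3 passed (0.23 for CLOCK and PER3, 0.41 for DBP).

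Other features moved with the number. Besides the mitochondrial share, which was 13.5% and 8.83% in number 2 against 4.03% and 4.4% in number 1 libraries of HER2 L755S and HER2 WT, the summed level of 21 immediate early genes was 383.4 and 309.6 CPM in number 2 libraries of HER2 L755S and HER2 WT, against 1060 and 988.9 CPM in their number 1 libraries. Of the 20 tested, 12 were lower in number 2 and none was higher, beside 18.2% of all tested genes called in either direction. The 8 fibroblast and endothelial markers summed to 62.09 and 54.68 CPM in number 2 libraries of HER2 L755S and HER2 WT, against 114.7 and 100.8 CPM in their number 1 libraries. That sum was mostly COL1A1, which was lower in number 2, while the other 2 tested markers, COL1A2 and COL3A1, were higher in number 2 and under 2 CPM in every library. The part of these features in the values of CLOCK, PER3 and DBP was not tested.

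**Figure D5:**
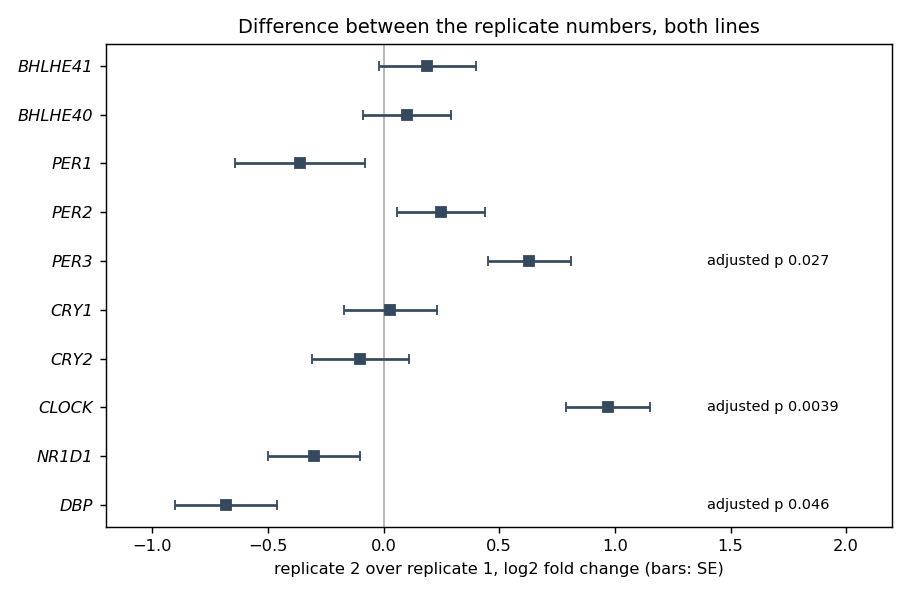
Log2 fold change of replicate number 2 over number 1, with the line as a term, and its SE for each clock gene, with the adjusted p printed where it was under 0.05. CLOCK at 0.97 and PER3 at 0.63 lie above 0, DBP at -0.68 lies below 0, and BHLHE41 lies at 0.19.

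Other genes of the clock network were compared in the same way. Over 4 lists of other clock genes (activators, repressors, modifying enzymes and outputs), 41 of 42 genes were tested, and 2 (4.88%) passed in the line comparison, both higher in HER2 L755S, beside 1.69% of all tested genes. These were ARNTL2 among 7 activators and KLF9 among 11 outputs. ARNTL2, the low transcript already given among the neighbours of BHLHE41, passed the filter on low counts only through HER2 L755S. The lists were chosen with earlier results of these data known, so nothing is read from the share. The output KLF9, a Krüppel-like repressor, had 10.3 and 15.5 CPM in HER2 L755S 1 and 2, against 1.05 and 2.51 CPM in HER2 WT 1 and 2 (log2 fold change 2.86, edgeR adjusted p = 0.016). Both HER2 L755S libraries were above both HER2 WT libraries. None of 5 repressors and none of 18 tested modifying enzymes passed. The median log2 fold change was -0.41 for activators, 0.00 for repressors, -0.07 for modifying enzymes and 0.06 for outputs, beside 0.00 for all tested genes.

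Several other clock genes had wide gaps that did not pass. NPAS2, a CLOCK paralog that can take its place beside ARNTL, had 72.2 and 40.6 CPM in HER2 L755S 1 and 2, against 24.0 and 18.5 CPM in HER2 WT 1 and 2 (log2 fold change 1.41, edgeR adjusted p = 0.10). RORB, a nuclear receptor that acts on the elements NR1D1 binds, had 0.342 and 0.818 CPM in HER2 L755S 1 and 2, against 2.22 and 3.82 CPM in HER2 WT 1 and 2 (log2 fold change -2.38, edgeR adjusted p = 0.082). The output WEE1, a mitotic kinase gene with E-boxes in the mouse, had 52.9 and 56.0 CPM in HER2 L755S 1 and 2, against 86.8 and 103 CPM in HER2 WT 1 and 2 (log2 fold change -0.80, edgeR adjusted p = 0.33). The lines did not overlap in any of these 3 genes, which were named by their p in this comparison. Of all tested genes 36.2% had no such overlap. Leaving out 1 library moved the log2 fold change of NPAS2 between 0.94 (without HER2 L755S 1) and 1.76 (without HER2 L755S 2). That of RORB ran from -3.13 (without HER2 L755S 2) to -1.88 (without HER2 L755S 1).

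Between the numbers, 10 of the 41 genes (24.4%) passed, 6 higher and 4 lower in number 2, beside 18.2% of all tested genes. The activator RORA was higher by 0.61 and NPAS2 was lower, at -0.61 (edgeR adjusted p = 0.047 and 0.042). NR1D2, the paralog of NR1D1, was higher by 0.61, and the corepressor enzyme HDAC3 was lower, at -0.56 (edgeR adjusted p = 0.032 and 0.048). FBXW7, a ubiquitin ligase subunit that targets NR1D1, was higher by 1.04, as were SIRT1 by 0.68 and the AMP-activated kinase gene PRKAA1 by 0.69, while the phosphatase gene PPP1CA was lower, at -0.76 (edgeR adjusted p = 0.0029, 0.024, 0.024 and 0.019). Among outputs KLF9 was higher by 0.87 and TSC22D3 was lower, at -0.60 (edgeR adjusted p = 0.049 and 0.039). ARNTL was at -0.33 (edgeR adjusted p = 0.28), so CLOCK passed and its partner did not, and the difference between them was not tested. Without the filter on low counts 1 of the 41 genes was called higher and 1 lower, and with DESeq2 5 were higher and 2 lower.

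The relatives of the BHLHE repressors were also examined. Of 9 hairy-related genes, 6 were tested, and HEY2, a Notch target in other tissues, was the 1 that passed between the lines, where 1.69% of all tested genes passed. HEY2 had 7.42 and 7.44 CPM in HER2 L755S 1 and 2, against 26.4 and 26.2 CPM in HER2 WT 1 and 2 (log2 fold change -1.82, edgeR adjusted p = 0.025). HES1 had 61.5 and 54.1 CPM in HER2 L755S 1 and 2, against 38.2 and 13.7 CPM in HER2 WT 1 and 2 (log2 fold change 1.16, edgeR adjusted p = 0.33). Its log2 fold change was 0.61 without HER2 WT 2 and 2.08 without HER2 WT 1. The median of the 6 was -0.95 between the lines. Between the numbers 3 of the 6, HES1, HES4 and HES6, were lower in number 2 libraries and none was higher, beside 18.2% of all tested genes called in either direction.

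Of 9 other bHLH-PAS genes, the family of CLOCK, 8 were tested and none passed between the lines, where 1.69% of all tested genes passed. Their median log2 fold change was -0.30, and HIF1A had 249.0 and 352.2 CPM in HER2 L755S 1 and 2, against 112 and 176 CPM in HER2 WT 1 and 2 (log2 fold change 1.06, edgeR adjusted p = 0.19). Between the numbers 3 of the 8 passed, beside 18.2% of all tested genes, with AHR and HIF1A higher in number 2 and NPAS1 lower. None of 20 immediate early genes passed between the lines in all 4 libraries, where 1.69% of all tested genes passed. With the replicate number as a block 4 were called higher and 1 lower, where 725 and 1018 of all tested genes were. Nothing is read from these counts. Of 6 tested glucocorticoid-induced genes, a class to which PER1 belongs, KLF9 alone passed between the lines, beside 1.69% of all tested genes. Between the numbers KLF9 was higher and DUSP1 and TSC22D3 were lower, beside 18.2% of all tested genes called in either direction. These 3 genes also stand in other lists.

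The genes whose profile over the 4 libraries was most like that of BHLHE41 were MAP1B, PTCHD1, STARD4, NR2F1 and SV2B. BHLHE41 was chosen with its gap between the lines known. Likeness to it picks genes by that same gap, so no support is drawn from their values. Likeness was the root mean square difference of centred log2 CPM over 4 libraries, which was 0.107 for MAP1B, 0.134 for PTCHD1, 0.166 for STARD4, 0.22 for NR2F1 and 0.266 for SV2B. MAP1B, which encodes a microtubule-associated protein of neurons, had 147 and 201 CPM in HER2 L755S 1 and 2, against 12.4 and 15.5 CPM in HER2 WT 1 and 2. STARD4, a cholesterol transfer protein gene, had 7.52 and 8.30 CPM in HER2 L755S 1 and 2, against 0.494 and 0.758 CPM in HER2 WT 1 and 2. MAP1B, STARD4 and NR2F1 lie on chromosome 5, PTCHD1 on X and SV2B on 15, and none lies on chromosome 12. The share of all tested genes on chromosome 5 was not computed, so nothing is read from these positions. None of the 5 is a member of the clock lists.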

How the data were processed

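RNA sequencing of 4 libraries was analysed, 2 of HER2 L755S and 2 of HER2 WT MM134 cells, grouped and numbered by their titles. Per the labels' protocols, poly(A) RNA was taken from 250 ng of total RNA, prepared with a TruSeq kit and read on a NovaSeq. Per the file headers, the authors deposited RSEM gene tables, which hold an expected count (an estimate that can be fractional), TPM and an abundance-weighted transcript length. STAR, edgeR and GRCh38 stand in the submitters' processing notes, with no version or role. No source used here gives the strand setting, so overlapping genes on opposite strands may share reads. Both tables of number 2 are marked as merged, with no word on what was joined.

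Expected counts were rounded. Of 60675 genes, 16538 passed filterByExpr, and libraries were scaled by TMM (factors 0.937 to 1.04). Lines were compared with the two-sided quasi-likelihood test of edgeR 4.0.16 in R 4.3.3 with no further term, and replicate numbers with the line as a term, with Benjamini-Hochberg adjustment over all tested genes at 0.05. Pair differences use log2 CPM with a prior count of 0.5. SEs come from the fold change and its F statistic. Positions and exon overlaps are from GENCODE 29, promoter windows from RefSeq.

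The 10 members, the 12 gene lists and the tests were chosen with earlier results of these data known. Named genes are the members, THRA, ERBB2, the 5 genes most like BHLHE41, and of each list up to 4 genes by p in each comparison plus every called gene. ARNTL, SSPN, SPHK2 and RP11-283G6.3 were added after their values were seen. Alternatives were size factors of DESeq2, DESeq2 1.42.0, no filter, the replicate number as a block, no line term, TPM in place of counts, and leaving out each library. On simulated data the line comparison recovered 6% of genes changed 2-fold, 70% at 4-fold, 88% at 8-fold and 100% at 16-fold, with 8 of 140 calls false (16187 genes). The number comparison recovered 58%, 90%, 100% and 100% at the same folds, with 10 of 184 calls false (16211 genes).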

Additional observations from a re-analysis of the deposited data

Results flagged for a closer look

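In 5 of the 10 clock genes the difference between HER2 L755S and HER2 WT took opposite signs in the 2 replicate numbers. The share of all tested genes with opposite signs was not computed, so the count is not read as a result about clock genes. On the log2 scale, HER2 L755S minus HER2 WT was -0.15 in pair 1 and 0.16 in pair 2 for PER1, 0.19 and -0.04 for PER2, and 0.07 and -0.02 for PER3. It was 0.44 in pair 1 and -0.16 in pair 2 for CRY1, and 0.58 and -0.08 for CRY2. Each pair holds 1 library of each line, and the difference between the pairs was not tested.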

How the results depend on the processing

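Among the 10 members, BHLHE41 was higher, BHLHE40 lower and NR1D1 higher in HER2 L755S cells under each of the 9 alternatives. Their libraries did not overlap between the lines, so leaving out 1 library could hardly change their direction. The genes were also chosen with this contrast known, and no support is drawn from the kept direction. BHLHE41 was at 3.70, at 3.15 with TPM in place of counts, and between 3.58 and 3.81 without any 1 library. The ranges were -0.89 to -0.61 for BHLHE40 and 0.62 to 1.12 for NR1D1, while CLOCK ran from -0.30 without HER2 L755S 2 to 0.85 without HER2 WT 2. Of all tested genes 122 were higher between the lines, against 276 with DESeq2, 328 without the filter, 725 with the replicate block, and 160 to 220 without 1 library. Lower genes numbered 157, against 309 with DESeq2, 431 without the filter, 1018 with the replicate block, and 184 to 328 without 1 library. KLF9, HEY2, SSPN and ARNTL2 passed in the alternatives that kept all 4 libraries. These genes were named for their call or after their values were seen, so no support is drawn from the kept calls. NPAS2 and RORB passed with DESeq2 (adjusted p = 0.011 and 0.025), without the filter (0.012 and 0.0017) and with the replicate block (0.00019 and 0.0022). The replicate block also called HIF1A (0.0012), HES1 (0.0022), WEE1 (0.0093), 4 immediate early genes higher and 1 lower, and 3 of the 41 other clock genes higher and 4 lower. For named genes that are not members, 32 of 80 values under alternatives lost a call between the numbers. The labels do not say that the numbers pair the libraries, and with 2 pairs the correlation of number differences between the lines (0.425 across 16538 genes, which are not independent) does not settle it.

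Between the numbers 1366 genes were higher and 1644 lower. Without the filter these were 741 and 964. Without the line term edgeR called 0 and 0 genes, with 2796 at an unadjusted p under 0.05, while DESeq2 with the line term called 1061 and 1105. CLOCK (0.97), PER3 (0.63) and DBP (-0.68) kept their direction in all 4 alternatives, with DBP at -0.66 in DESeq2 and -0.63 without the line term. Leaving out 1 library leaves no residual degrees of freedom in the number comparison and was not run. With 2 libraries a line, SEs of 0.30 to 0.42 on the log2 scale limit what the line comparison can show for the members.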
